A study of Drosophila melanogaster with 2 samples.

Results

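The genes described here are the translation factor genes of Drosophila melanogaster: the protein-coding genes of the dm6 annotation whose symbol starts with eIF, eEF or eRF. There were 54 of them among 13968 protein-coding genes, with 44 initiation factor genes (eIF), 8 elongation factor genes (eEF) and 2 release factor genes (eRF). Of the 54, 12 had a peak of the conservative set near a transcript start (22.2%, against 12.7% of all protein-coding genes). The experiment was chromatin immunoprecipitation followed by sequencing (ChIP-seq), which maps where a protein lies on DNA. It was done on whole embryos aged 0 to 24 h of the strain ranshi-GFP, which carries an insertion that makes ranshi, a zinc finger protein, as a fusion to eGFP. The fusion was pulled down with an antibody against GFP, in 1 group of 2 samples that the labels call biological replicates. Both samples carried the fusion and the embryos were whole animals of mixed stages, so the cell types behind a peak cannot be told apart. Untagged or input libraries were not analysed here, and the sources used here state no read depth.

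Translation factors guide the ribosome through protein synthesis. Initiation factors bring the initiator transfer RNA (eIF2, recharged by eIF2B), the small ribosomal subunit (eIF3 and the small factors eIF1 and eIF1A) and the capped messenger RNA (the eIF4 group) together, and eIF5B then joins the large subunit. Elongation factors deliver aminoacyl-tRNAs (eEF1) and move the ribosome along (eEF2), and the release factors eRF1 and eRF3 end the chain at a stop codon. Most of these genes are active in every growing cell, while several have a second copy.

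The summit sequences of 10 members are shown because base content and a short promoter word differ between them. Each is read 5' to 3' on the strand of the gene from the RefSeq genome of the same build, within 75 bp to each side of the summit, and stops where an annotated untranslated region begins. Capitals mark the word TATCGATA, the DNA replication-related element (DRE) found in many fly promoters of genes used in all cells, and the word CACTG or its reverse strand CAGTG. The first 5 come from summits with a DRE word, at eEF1gamma (dm6 3R:29220077-29220171, plus strand), eIF1 (dm6 3L:3222961-3223088, plus strand), eIF2gamma (dm6 3R:15263459-15263551, minus strand), eIF3a (dm6 3R:4433896-4433964, minus strand) and eIF3f1 (dm6 3R:4714183-4714301, minus strand).
eEF1gamma: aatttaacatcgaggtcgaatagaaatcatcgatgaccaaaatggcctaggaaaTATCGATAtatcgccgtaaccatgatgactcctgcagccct
eIF1: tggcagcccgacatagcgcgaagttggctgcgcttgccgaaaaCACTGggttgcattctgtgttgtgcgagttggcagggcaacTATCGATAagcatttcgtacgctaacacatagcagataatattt
eIF2gamma: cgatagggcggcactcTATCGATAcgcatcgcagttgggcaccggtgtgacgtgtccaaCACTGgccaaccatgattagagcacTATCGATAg
eIF3a: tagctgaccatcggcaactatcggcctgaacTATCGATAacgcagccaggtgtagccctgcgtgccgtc
eIF3f1: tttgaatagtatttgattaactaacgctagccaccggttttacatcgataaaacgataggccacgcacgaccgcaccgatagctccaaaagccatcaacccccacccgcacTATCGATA
At eIF2gamma 2 of the 3 copies in the full window lie in the stretch printed. The next 5 hold neither word, and those of eRF3 and eIF4EHP were the lowest in G+C of the 20 members with a peak. They come from eRF3 (dm6 2L:12434237-12434387, plus strand), eIF5B (dm6 3L:3460629-3460706, minus strand), eIF4EHP (dm6 3R:24109137-24109287, minus strand), eIF3h (dm6 2L:5052365-5052515, minus strand) and eIF2beta (dm6 3L:12526936-12527086, minus strand), the last as a peak found in the replicate 2 set alone.
eRF3: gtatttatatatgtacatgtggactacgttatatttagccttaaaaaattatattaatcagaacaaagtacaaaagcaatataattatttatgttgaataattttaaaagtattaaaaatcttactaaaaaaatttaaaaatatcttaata
eIF5B: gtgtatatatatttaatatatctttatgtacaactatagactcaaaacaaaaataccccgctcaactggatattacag
eIF4EHP: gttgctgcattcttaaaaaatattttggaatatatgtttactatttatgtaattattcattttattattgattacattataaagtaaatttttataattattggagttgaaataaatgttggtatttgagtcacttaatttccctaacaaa
eIF3h: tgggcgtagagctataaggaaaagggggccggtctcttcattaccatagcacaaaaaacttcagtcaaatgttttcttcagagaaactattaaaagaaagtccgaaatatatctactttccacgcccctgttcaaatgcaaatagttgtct
eIF2beta: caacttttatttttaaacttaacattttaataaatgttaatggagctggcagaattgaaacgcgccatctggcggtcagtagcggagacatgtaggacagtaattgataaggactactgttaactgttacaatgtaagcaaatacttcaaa

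Peaks were read from 4 thresholded sets: a conservative set across replicates (2984 peaks), a larger set across replicates (5373), a replicate 1 set (3636) and a replicate 2 set (3149). A ranked list of candidates lay behind each set. The sets held candidates with a score of 830 or more, which stands for an irreproducible discovery rate of 0.01, a measure of how well a peak's rank repeats between the inputs compared. A gene had a peak where a summit lay within 500 bp of 1 of its transcript starts. The conservative set had such a peak at 12 of 54 translation factor genes (22.2%), against 12.7% of all protein-coding genes. The larger set had 17 of 54 (31.5%, against 20.5%), the replicate 1 set 9 of 54 (16.7%, against 14.5%) and the replicate 2 set 15 of 54 (27.8%, against 13.9%). Among genes with a candidate in the conservative ranked list, the count was 12 of 36 members (33.3%), against 21.6% of all such genes. In all, 20 members had a peak in 1 or more of the 4 sets (37.0%, against 23.1% of all genes), and 7 had one in both replicate sets (13.0%, against 8.77%). These shares were not tested against each other.

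By role, initiation factor genes had a conservative peak at 8 of 44 members (18.2%), elongation factor genes at 3 of 8 (37.5%) and release factor genes at 1 of 2. The share of all genes in that set was 12.7%. In the larger set the counts by role were 11, 4 and 2, where 20.5% of all genes had a peak. The replicate 1 set held 6 initiation members (13.6%, against 14.5% of all genes), 2 elongation members and 1 release member. The replicate 2 set held 11 initiation and 4 elongation members and neither release member, where 13.9% of all genes had a peak. The initiation share was thus just below that of all genes in replicate 1 and above it in each of the other sets. The elongation share was above it in each set, over 8 genes.

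**Figure D1:**
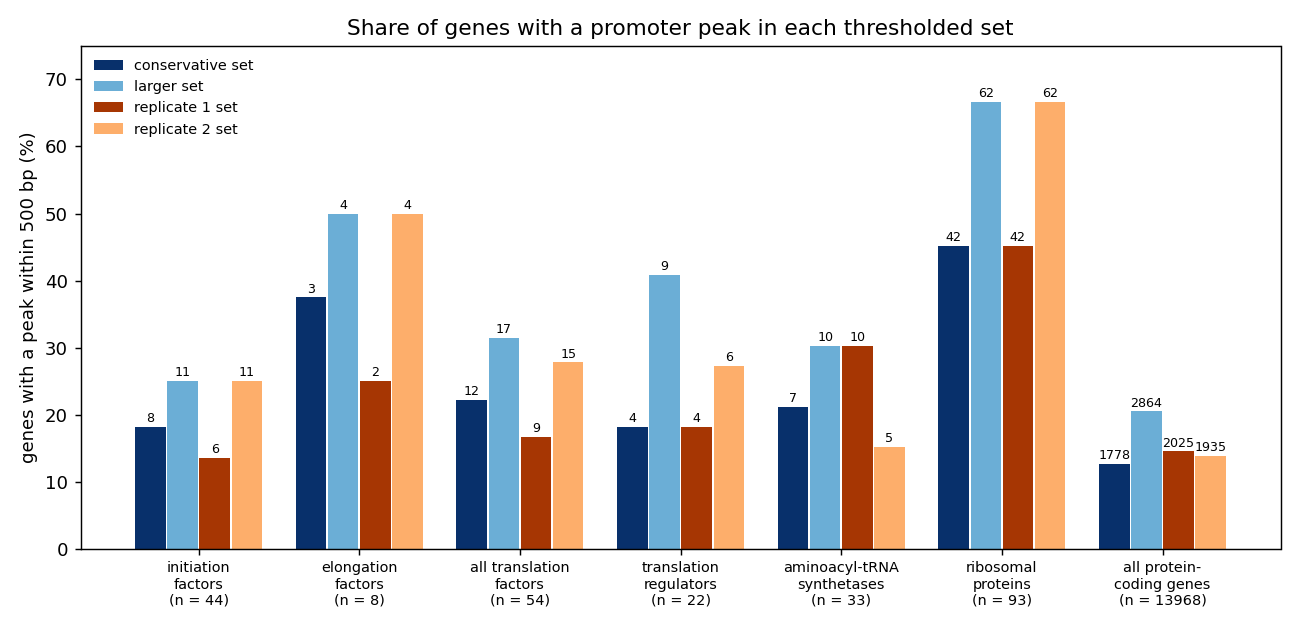
Bars give the percentage of genes with a summit within 500 bp of a start in each thresholded set, for translation factor genes by role, for 3 other gene lists and for all protein-coding genes, with the number of genes above each bar. In each of the 4 sets the bar of the 54 translation factor genes (16.7 to 31.5%) is higher than that of all genes in the same set (12.7 to 20.5%) and lower than that of ribosomal protein genes (45.2 to 66.7%); the 2 release factor genes have no bars of their own.

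Among the initiation factors, eIF6 had by far the highest peak. eIF6 keeps free large ribosomal subunits from joining small ones too early and acts in ribosome assembly. Its conservative peak (2R:23850263-23850550) had a signal of 1527 and ranked 9 of 2984. The signal of a peak comes from the authors' peak caller and has no common scale across lists, so each value has its rank within the list beside it. The replicate 1 peak had a signal of 1168 (rank 9 of 3636) and the replicate 2 peak a signal of 349 (rank 27 of 3149), so both replicates placed it near the top. The summit was 105 bp upstream of the eIF6 start and 76 bp inside asRNA:CR45928, an antisense RNA whose start was closer, in a non-coding exon of that RNA.

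Of the factors that act outside the large complexes, eIF1, which guards the choice of start codon, had a conservative peak with a signal of 237 (rank 678) at 3L:3222935-3223104. In replicate 1 the signal was 142 (rank 810), and in replicate 2 it was 85.4 (rank 666). Its summit was 328 bp upstream of eIF1 and 53 bp upstream of RpL28, a ribosomal protein gene, so eIF1 was not the closest gene. eIF5B, the GTPase of subunit joining, had a conservative signal of 173 (rank 1096) at 3L:3460526-3460841, in an intron 81 bp upstream of an internal start. Replicate 1 gave a signal of 119 (rank 1079), and replicate 2 gave 52.6 (rank 1638). eIF2A, a factor that can bring in initiator transfer RNA without eIF2, had a conservative signal of 106 (rank 2040) at 3L:21824754-21825069. The summit lay in its 5' UTR, 53 bp upstream of an internal start. eIF2A was the single member with a conservative peak and no peak in either replicate set (1.85% of members, against 0.680% of all genes). Its candidates ranked in the top 2.60% in replicate 1 (score 398) and the top 3.47% in replicate 2 (score 191), under the score limit of 830. eIF2D, which also delivers transfer RNA to the start codon and recycles ribosomes, had no conservative peak. Its larger-set peak at 3R:29151726-29152041 had a signal of 119 (rank 1952), with a replicate 2 peak of signal 85.0 (rank 670) and a replicate 1 candidate of signal 27.8 in the top 7.86%. The 2 other genes of this group, eIF1A and eIF5, had no peak in the 4 sets.

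The eIF3 complex, the large scaffold on the small subunit, has 16 genes in the list, copies included. Of these, 3 had a conservative peak (18.8%, against 12.7% of all genes) and 5 a larger-set peak (31.2%, against 20.5%). Each replicate set had 3 of 16 (18.8%), against 14.5% of all genes in replicate 1 and 13.9% in replicate 2. eIF3c had a signal of 237 (rank 676) at 2R:17665510-17665825, and the summit stood 10 bp before the start. It had a signal of 202 (rank 456) in the replicate 1 set and no peak in the replicate 2 set, where its candidate had a signal of 35.4 in the top 4.46%. eIF3h had a signal of 218 (rank 771) at 2L:5052377-5052525, in an intron 340 bp downstream of its closest start, an internal one. Both replicates had it: replicate 1 at a signal of 138 (rank 848), replicate 2 at 94.4 (rank 544). A further replicate 1 peak at eIF3h, 99 bp upstream of that start, had a signal of 38.5 and rank 3527, and it was closer to senju, the divergent neighbour. eIF3a, the largest core subunit, had a signal of 118 (rank 1801) at 3R:4433790-4434105, between divergent starts, 53 bp upstream of eIF3a and 17 bp upstream of CG1074. Both replicate sets held eIF3a, replicate 1 at a signal of 58.8 (rank 2556) and replicate 2 at 48.3 (rank 1925). New in the larger set were eIF3f1 (3R:4714068-4714383, signal 62.8, rank 4371 of 5373) and eIF3m (2R:14164587-14164902, signal 65.5, rank 4165). eIF3f1 was also in the replicate 2 set (signal 36.7, rank 2810) and had no replicate 1 candidate, whereas eIF3m was in neither replicate set.

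Of the 3 eIF2 genes, 1 had a conservative peak (12.7% of all genes) and 2 a replicate 2 peak (13.9% of all genes). Of the 5 genes of its exchange factor eIF2B, 0 had a conservative peak and 1 a replicate 2 peak. eIF2gamma, the GTPase subunit that holds the initiator transfer RNA, had a conservative signal of 101 (rank 2150) at 3R:15263352-15263667. Its replicate 2 peak had a signal of 38.5 (rank 2695) and a score of 875, and its replicate 1 candidate had a score of 818, just under the limit of 830. The summit lay 52 bp upstream of eIF2gamma and 42 bp upstream of Set on the other strand. The gene Su(var)3-9, which encodes a histone methyltransferase, shares a start with eIF2gamma, and the replicate 2 summit was 14 bp upstream of the starts of both. eIF2beta, the subunit that eIF5 and eIF2B bind, had a replicate 2 peak alone at 3L:12526866-12527155 (signal 54.5, rank 1518, 280 bp upstream). eIF2alpha, the subunit that stress kinases phosphorylate, had no peak. The eIF2B gene with the replicate 2 peak was eIF2Bgamma, at 2R:15542559-15542848 (signal 46.4, rank 2074, 43 bp downstream of a start). eIF2Bbeta lay just outside the window of 500 bp: the highest peak of the whole conservative set, at X:2703720-2704051 with a signal of 2765, had its summit 676 bp upstream of eIF2Bbeta and 43 bp upstream of Ugalt, a sugar transporter gene. It also ranked 1 in both replicate sets, with a signal of 2021 in replicate 1 and 751 in replicate 2.

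The eIF4 group, which handles the cap and unwinds the messenger RNA, had 0 of 13 members in the conservative set (against 12.7% of all genes), 0 of 13 in the larger set (against 20.5%), 0 of 13 in the replicate 1 set (against 14.5%) and 1 of 13 in the replicate 2 set (7.69%, against 13.9%). A gene of the group, eIF4EHP, ranked far higher than that count shows. It encodes a cap-binding repressor that works with Bicoid on caudal messenger RNA in the fly embryo. eIF4EHP had a candidate of signal 864 and rank 55 of 89391 in the ranked list behind the conservative set, with the top score of 1000. Replicate 1 ranked it 44 of 112688 (signal 663) and replicate 2 ranked it 145 of 83284 (signal 185). Yet it was in the replicate 2 set alone, at 3R:24109142-24109288 (rank 138). The candidates across replicates (3R:24109035-24109346, 312 bp) and in replicate 1 (3R:24109032-24109343, 312 bp) were wider than the replicate 2 peak of 147 bp. Each set left out some candidates at or over the score limit, 69 for the conservative set, 163 for the larger set, 160 for replicate 1 and 108 for replicate 2, and eIF4EHP was the single member among them, in the first 3 cases. The sources used here give no reason for leaving these out. The summit was 236 bp upstream of eIF4EHP and 140 bp upstream of CG18428. Of the other eIF4 genes, the helicase gene eIF4A had its best candidate in the top 5.41% of the conservative ranked list, eIF4G2, a scaffold gene used in the male germ line, in the top 4.77%, and the main cap-binding gene eIF4E1 had none there and one in the top 4.77% in replicate 2.

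Of the 8 elongation factor genes, 3 had a conservative peak (37.5%, against 12.7% of all genes). eEF1gamma, a subunit of the exchange complex of eEF1, had a signal of 327 (rank 397) at 3R:29220074-29220252, 20 bp upstream of its start. It ranked 140 of 3149 in replicate 2 (signal 184) and 916 of 3636 in replicate 1 (signal 132). eEF1alpha1, the abundant GTPase that carries aminoacyl-tRNA to the ribosome, had a signal of 231 (rank 709) at 2R:11892022-11892111, a summit 74 bp upstream of an internal start and inside an intron. The signal was 146 (rank 768) in replicate 1 and it was 83.1 (rank 698) in replicate 2. eEF5, the factor known elsewhere as eIF5A that eases difficult peptide bonds, had a signal of 127 (rank 1647) at 2R:24057601-24057916, 39 bp upstream. It was in the replicate 2 set (signal 60.3, rank 1261) and had no candidate within 500 bp in replicate 1. eEF2, the translocase, showed the same split outside the conservative set: a larger-set signal of 112 (rank 2117) in its 5' UTR at 2L:21681916-21682231, a replicate 2 signal of 72.4 (rank 915), and no replicate 1 candidate. The other exchange factor genes eEF1beta and eEF1delta, the copy eEF1alpha2, and eEFSec, the selenocysteine factor gene, had no peak in the 4 sets.

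Both release factor genes had a peak in a set across replicates, and neither was in the replicate 2 set. eRF3, the GTPase partner of eRF1, had a conservative signal of 159 (rank 1239) at 2L:12434154-12434469, 140 bp upstream and inside an intron of SC35, a splicing factor gene. Its replicate 1 peak had a signal of 123 (rank 1029), and its replicate 2 candidate had a signal of 29.0 and a score of 578, under the limit. eRF1, which reads the stop codon, had a larger-set peak of signal 172 (rank 1160) at 3L:20348071-20348386, 126 bp upstream. No candidate lay within 500 bp of eRF1 in replicate 1, and the best one in replicate 2 was downstream of the start, in the 5' UTR, with a signal of 21.3 in the top 14.1%.

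**Figure D2:**
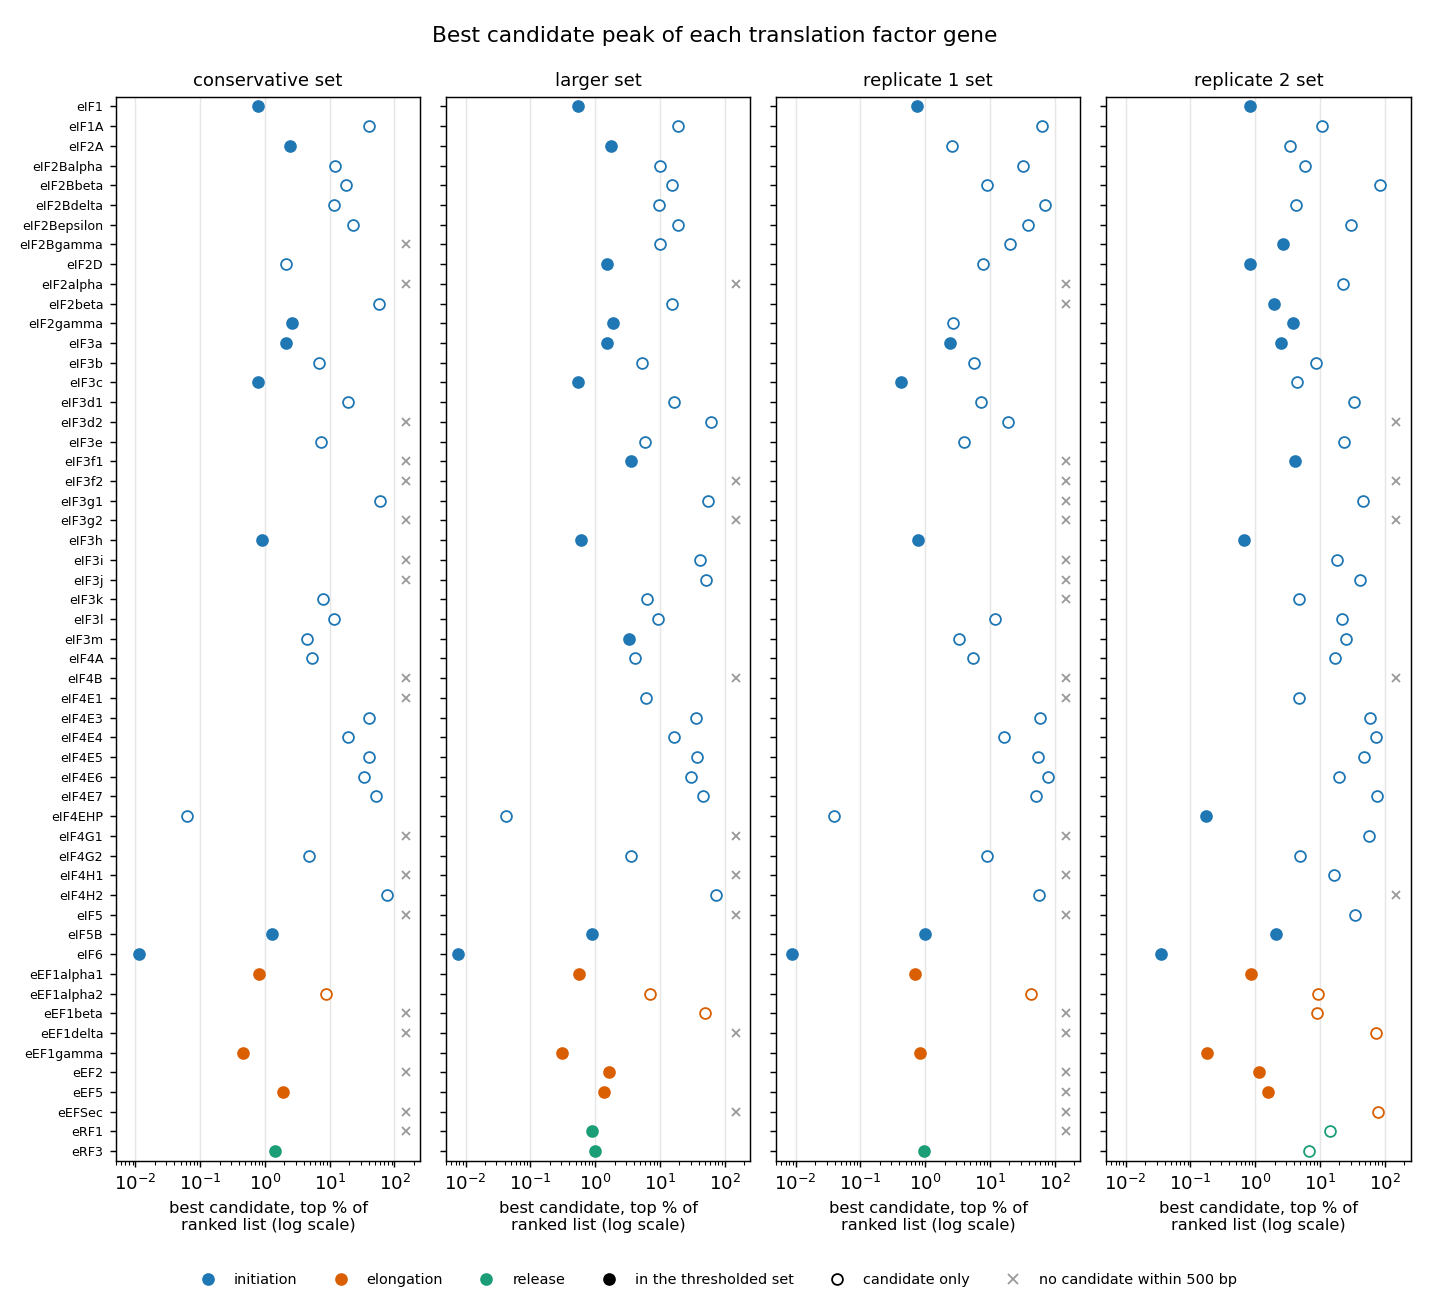
Each row is 1 translation factor gene and each panel is the ranked candidate list behind 1 set, with the rank of the gene's best candidate within 500 bp as a percentage of the list on a log axis (left is higher). Filled points are in the thresholded set, open points are not, and crosses at the right edge mark genes with no candidate; eIF4EHP is open far to the left in 3 panels and filled in replicate 2.

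The 34 members without a peak in any of the 4 sets mostly still had candidates. In 3 genes, eIF3f2, eIF3g2 and eIF4B, no ranked list held a candidate within 500 bp (3 of 54, 5.56%, against 10.2% of all genes). Among genes with a second copy, eIF3f1 had peaks and eIF3f2 had no candidate, eIF3g1 had candidates of signal 16.7 across replicates and eIF3g2 had none, and eEF1alpha1 had peaks in all 4 sets while eEF1alpha2 reached the top 8.80% of the conservative ranked list. The cap-binding copies eIF4E3, eIF4E4, eIF4E5, eIF4E6 and eIF4E7 had their best conservative candidates between the top 19.4 and 51.1%. In replicate 1 the eIF3e candidate had a signal of 38.5 in the top 3.97% and a score of 799, under the limit of 830. eIF3b, a core subunit, reached the top 6.81% of the conservative ranked list, eIF3k the top 7.85%, eIF3l the top 11.5% and eIF3d1 the top 19.4%. eIF3d2, eIF3i and eIF3j had no candidate there. In the larger ranked list eIF3d2 reached the top 60.7%, eIF3i the top 42.2% and eIF3j the top 52.3%. Of the eIF2B genes, eIF2Balpha reached the top 12.2% of the conservative ranked list, eIF2Bdelta 11.6%, eIF2Bbeta 18.0% and eIF2Bepsilon 22.5%. eIF1A reached the top 39.9% there, and eIF4H2 the top 77.1%. The genes eEF1delta, eEFSec, eIF2alpha, eIF4G1, eIF4H1 and eIF5 had a candidate in the replicate 2 ranked list alone, between the top 16.4 and 77.6%. eEF1beta also had none in the conservative and replicate 1 ranked lists and reached the top 8.89% in replicate 2.

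The median best candidate of the 36 members with one was in the top 7.07% of the conservative ranked list, against 13.5% for the 8240 genes with one. The same measure was 7.23% for aminoacyl-tRNA synthetase genes, 4.85% for a list of 22 other translation genes and 1.62% for ribosomal protein genes. A median above that of all genes was thus not particular to the members. The 7 members on the X chromosome had 0 peaks in each of the 4 sets. Of the 2196 X genes, 11.7% had a peak in the conservative set, 19.2% in the larger set, 14.3% in the replicate 1 set and 10.8% in the replicate 2 set. The 1 member on chromosome 4, eIF4G1, had none, on an arm where 1.25% of the 80 genes had a conservative peak.

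The replicates differed in which members they held. Of the 54 members, 7 were in both replicate sets (eEF1alpha1, eEF1gamma, eIF1, eIF3a, eIF3h, eIF5B and eIF6), 2 in replicate 1 alone (eIF3c and eRF3) and 8 in replicate 2 alone (eEF2, eEF5, eIF2Bgamma, eIF2D, eIF2beta, eIF2gamma, eIF3f1 and eIF4EHP). Over all genes the split was nearly even, with 800 in replicate 1 alone (5.73%) and 710 in replicate 2 alone (5.08%). In the ranked lists, 34 members had a candidate in replicate 1 (63.0%, against 62.1% of all genes) and 49 in replicate 2 (90.7%, against 71.6%).

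In the conservative set 11 of 12 members had their highest summit upstream of the closest start (91.7%), near the 89.3% of all genes with a conservative peak. The members' median position was -53 bp, with quartiles of -87 and -34 bp. The same measure over the 1778 genes with a conservative peak gave a median of -133 bp and quartiles of -212 and -70 bp. No such median was taken for ribosomal protein genes or other lists, so nearness to the start is not shown to be particular to these members. The members' median was -92 bp in replicate 1 (9 genes) and -38 bp in replicate 2 (15 genes), against -143 bp and -101 bp over all genes with a peak. In the larger set it was -53 bp (17 genes), against -125 bp. The members with a summit downstream of their closest start were eIF3h, eEF2, eIF3m and eIF2Bgamma. At eEF1alpha1, eIF2A, eIF5B, eIF3h and eEF2 the closest start was internal. The summits of eEF1alpha1, eIF2A and eIF5B counted as upstream but lay inside the gene, downstream of its first start. At eEF1alpha1 and eIF3h the conservative summit was more than 500 bp from the first start. Another annotated start was closer to the conservative summit at 4 members, those of asRNA:CR45928 for eIF6, RpL28 for eIF1, CG1074 for eIF3a and Set for eIF2gamma.

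**Figure D3:**
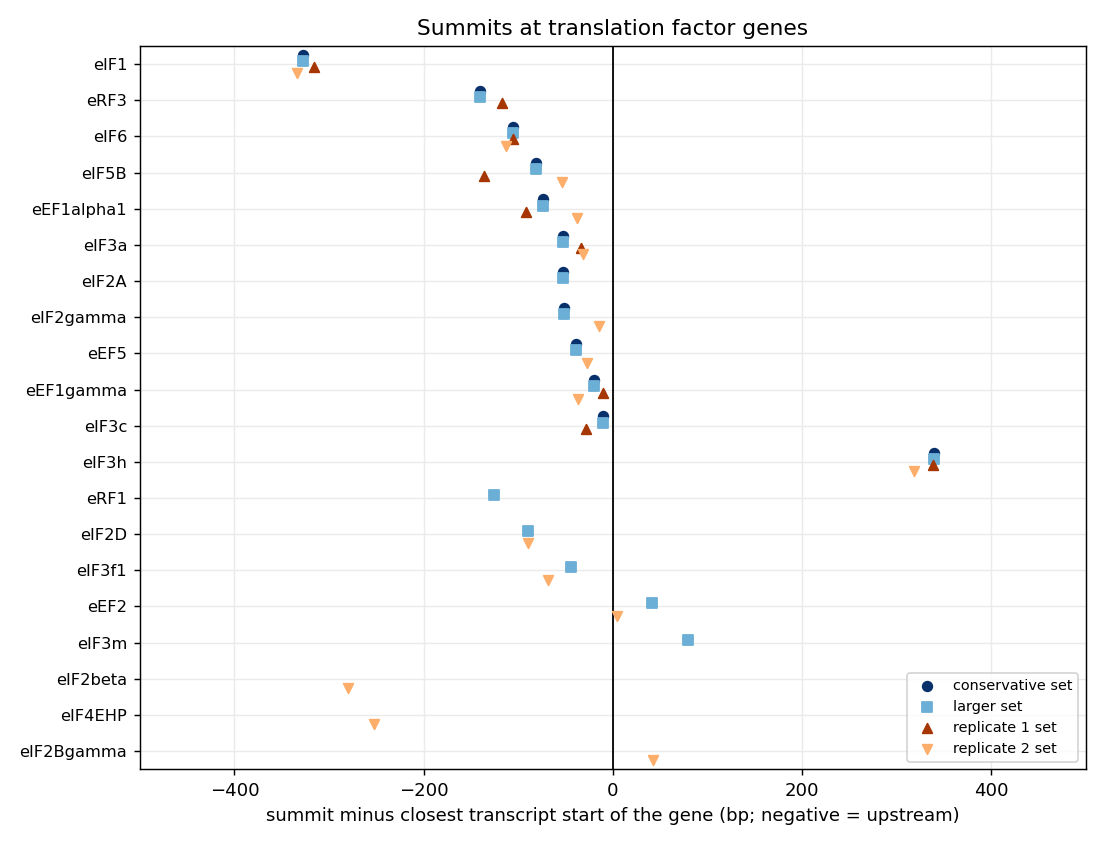
Each point is the highest summit of a gene in 1 thresholded set, placed by its distance in bp from the closest transcript start of that gene, with upstream to the left, for the 20 members with a peak in 1 or more sets. Apart from eIF1 at -328 bp and eIF3h at 340 bp, the conservative summits lie between -140 and -10 bp.

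Summits at these genes ranged widely in base content. In 75 bp to each side of the summit the 12 conservative members had a median G+C of 46.0% (range 16.6 to 51.7%), against 33.1% over all 1348 conservative promoter summits and 49.0% over 10366 promoter candidates that overlapped no set. Each member's window was placed on its conservative summit, or else on its larger-set or replicate 2 summit, so most do not stand on the summit of a single replicate. Of the 8 members in the replicate 2 set and not the replicate 1 set, eIF2gamma and eEF5 have conservative windows, eEF2, eIF3f1 and eIF2D larger-set windows, and eIF2Bgamma, eIF2beta and eIF4EHP replicate 2 windows. eIF2gamma had 51.7%, eEF5 49.0%, eEF2 and eIF3f1 47.7% each, eIF2Bgamma 44.4%, eIF2beta 35.1%, eIF2D 24.5% and eIF4EHP 19.9%. The 2 members in the replicate 1 set and not the replicate 2 set were eIF3c at 34.4% and eRF3 at 16.6%. Over all genes, measured on the summits of each replicate itself, promoter summits of replicate 1 with no replicate 2 peak had a median G+C of 31.8% (614 summits), and those of replicate 2 with no replicate 1 peak had 46.4% (742 summits). The part of this difference between replicates in the members' counts was not tested.

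The word TATCGATA stood in these windows at 5 of 12 conservative members (41.7%), at eEF1gamma, eIF1, eIF2A, eIF2gamma and eIF3a, against 4.75% of all conservative promoter summits and 1.24% of the promoter candidates outside the sets. It reads the same on both strands. The window at eIF2gamma held it 3 times, centred 40.5 and 21.5 bp upstream and 46.5 bp downstream of the summit. eIF3f1 in the larger set also had it, so 6 of the 20 members with any peak did. This word was searched after the members' windows had been seen, so its counts are a description. The peaks at eIF1, eIF2gamma and eIF3a were closer to other protein-coding genes, and without them 2 of 9 held the word. The word CACTG, on either strand, was in 6 of 12 windows, against 34.3% of all conservative promoter summits and 32.4% of the candidates outside the sets. TATAAA, on either strand, was in 2 of 12, at eIF6 and eRF3 (16.7%), against 31.6% of all conservative promoter summits. A match is no measure of binding by any factor.

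**Figure D4:**
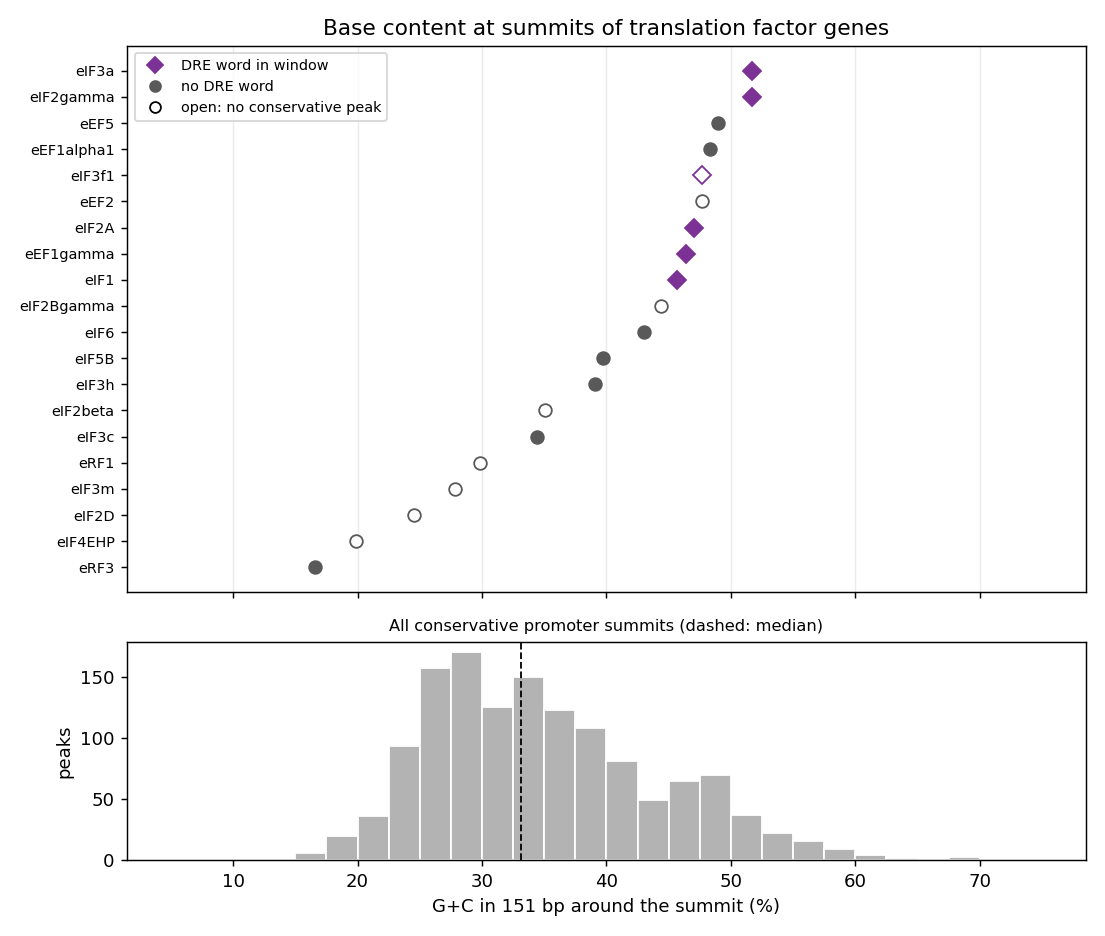
The upper panel gives the G+C percentage within 75 bp of the highest summit of each of the 20 members with a peak, diamonds for windows that hold TATCGATA and open symbols for members without a conservative peak. The lower panel is a histogram of the same measure over all 1348 conservative promoter summits, with its median of 33.1% dashed; the windows with the word lie between 45.7 and 51.7%.

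Fly ribosomal protein genes are known for a start element rich in pyrimidines. The word CTTT within 5 bp of a start, on the strand of the gene, was at 58 of 93 cytoplasmic ribosomal protein genes (62.4%) and 8.06% of all protein-coding genes. Translation factor genes had it at 7 of 54 (13.0%): eEF1alpha1, eEF2, eEF5, eIF3f1, eIF3i, eIF3m and eIF4A. By role that was 3 of 8 elongation genes and 4 of 44 initiation genes. Of the 12 members with a conservative peak 2 had it (16.7%), against 5 of 42 without one (11.9%).

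Genes that regulate these factors were read in the same way from a list of 22. Of these, 4 had a conservative peak (18.2%, against 12.7% of all genes). pAbp, the poly(A)-binding protein, had the highest signal (282, rank 495), 493 bp downstream of a start. larp, which binds messenger RNAs of the translation machinery, had 175 (rank 1077), Thor, the fly 4E-BP that blocks eIF4E, had 138 (rank 1483), and Gcn2, a kinase of eIF2alpha, had 87.5 (rank 2422). The larger set added Rheb, HBS1, pelo, pix and MCTS1, for 9 of 22 (40.9%, against 20.5% of all genes). Aminoacyl-tRNA synthetase genes had a conservative peak at 7 of 33 (21.2%), close to the 22.2% of the translation factors, and cytoplasmic ribosomal protein genes at 42 of 93 (45.2%). In replicate 1 the synthetases had 10 of 33 (30.3%) and in replicate 2 they had 5 of 33 (15.2%). The translation factors had the opposite order, with 9 of 54 (16.7%) and 15 of 54 (27.8%). The shares of all genes were 14.5% and 13.9%, so the lower share of each list was near that of all genes. These differences between lists were not tested.

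The window set part of the counts. With 200 bp the conservative set had 10 of 54 members (eIF1 and eIF3h dropped out), against 9.07% of all genes, and with 1000 bp it had 13 (eIF2Bbeta came in), against 15.1%.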

How the data were processed

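ChIP-seq peaks were taken from 8 deposited lists on dm6, a ranked list and a thresholded set for each of 2 replicates and 2 of each across replicates. No aligner or peak caller is named in the sources used here. Each peak score the authors deposited, tested on the ranked lists, is a scaled log2 of 1 over the irreproducible discovery rate, capped at 1000, within 1 unit for 100% of ranked peaks, so the lowest score in the sets, 830, stands for a rate of 0.01. The deposited signal is the peak caller's value and was ranked within a list. The deposited −log10 discovery rate served to check the score. In the 2 ranked lists across replicates, 16 columns for separate inputs were not used. Summits came from the deposited offsets.

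Members and lists were chosen with earlier results of these data known. Starts were all transcripts of Ensembl release 115, without transposable element genes and pseudogenes, and peaks on the chromosome arms ended within the lengths of the RefSeq genome used for sequences. Named genes were the members with a peak in 1 or more sets, and the others by the best rank of their candidates; complexes were grouped by symbol. Tor had no unique match and was left out of the list of other translation genes. The assignment was checked on simulated peaks. With 1 group there was no test, and no error was computed for the shares over genes. Depth is unknown, so no counting limit is given. Alternatives changed the window, replicate, score, start, assignment and overlap. Python 3.11.15, pandas 2.3.3, pysam 0.24.0, numpy 2.4.6 and matplotlib 3.10.9 were used.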

Additional observations from a re-analysis of the deposited data

How the results depend on the processing

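No paired analysis was possible because the labels give 1 group. Of 50 values recomputed under other choices of window, replicate, score, start and assignment, 46 stayed close to the main value and 4 moved. Close meant within 1.5 times the reported count, or within the spread of the 2 replicate medians of position (SD 38.2 bp). Those replicate medians, -92 and -38 bp, were also among the positions judged, and the limit is wide beside -53 bp. For position, staying close is therefore a weak check. Only the median position could change sign, and it did so in 0 cases. Counts limited to members with a candidate could not change, because each set was drawn from its ranked list. Leaving out 1 replicate meant reading the other replicate's own set in place of the set across replicates, which was not called anew. It gave 9 to 15 members in place of 12 for the conservative set and 9 to 15 in place of 17 for the larger set. By role it gave 6 to 11 initiation members in place of 8, 2 to 4 elongation members in place of 3, and 0 to 1 release members in place of 1. The low values came without replicate 2, except for release, where the set without replicate 1 had 0. The median summit position was -92 to -38 bp in place of -53 bp. Giving each peak to its closest protein-coding gene left 5 initiation members in place of 8, since eIF1, eIF2gamma and eIF3a dropped out, and 9 members in all, against 9.34% of all genes. With only the first start of each gene, the conservative set had 10 members, against 11.1% of all genes, since eEF1alpha1 and eIF3h dropped out. For TATCGATA, 3 alternatives were added after seeing the data: windows of 50 or 100 bp to each side gave 5 of 12 both times (against 3.49% and 6.75% of all conservative promoter summits), and the closest gene rule gave 2 of 9. The cause of the change without a replicate was not tested. With 2 replicates, counts of single members rest on 1 peak each.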
